A study of Homo sapiens with 84 samples.

Results

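The experiment asked how the transcriptional response of NCI-H647 cells to PARP7 inhibition differed between 24 and 6 h of exposure. Its members were the 42 NCI-H647 libraries among the 84 libraries of the study, taken by their labelled cell line. NCI-H647 is an established non-small cell lung cancer line. Cells received RBN-2397 at 10, 30 or 300 nM, RBN012337 at 3, 10 or 100 nM, or the vehicle DMSO, for 6 or 24 h, and the labels describe both compounds as PARP7 inhibitors. The sample labels spell the first compound RBN012397 and the design text RBN-2397. Each of the 14 groups held 3 libraries, so that every time had 18 treated and 3 DMSO libraries. The response at a time was the mean over the 6 treated groups minus the DMSO group of that time, on the log2 scale, and the tested quantity was the 24 h response minus the 6 h response. Nothing in the labels ties a replicate number to a separate culture, and the tests therefore weigh differences only against library-to-library scatter, part of which can be technical.

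PARP7, encoded by TIPARP, is a mono-ADP-ribosyltransferase that is induced by the aryl hydrocarbon receptor and represses it in turn. It also dampens the induction of type I interferon that follows sensing of nucleic acids in the cytosol. Secreted interferon acts through its receptor on a complex of transcription factors that includes STAT2 and IRF9 and binds interferon-stimulated response elements in the promoters of antiviral genes.

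The core of that element is a repeat of GAAA, and the promoter stretches of 6 interferon-stimulated genes are shown because 2 of them, IFI6 and ISG20, passed the threshold described below. The sequences are RefSeq's for GRCh38.p14, 5′ to 3′ on the gene's own strand, with 1 match of the motif in capitals, written as GAAA, any 2 bases and GAAA again and searched on both strands.

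IFI6: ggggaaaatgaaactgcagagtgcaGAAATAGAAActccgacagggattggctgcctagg
ISG20: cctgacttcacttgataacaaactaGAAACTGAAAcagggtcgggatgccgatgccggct
IFITM3: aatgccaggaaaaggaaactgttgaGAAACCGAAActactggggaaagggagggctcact
ISG15: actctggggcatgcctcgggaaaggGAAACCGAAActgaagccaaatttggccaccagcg
IFI27: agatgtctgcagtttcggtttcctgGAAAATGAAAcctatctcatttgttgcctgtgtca
BST2: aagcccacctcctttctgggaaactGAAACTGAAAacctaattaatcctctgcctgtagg

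These stretches lie at chr1:27672251-27672310 (minus strand) for IFI6, chr15:88638922-88638981 (plus strand) for ISG20 and chr11:320861-320920 (minus strand) for IFITM3. Those of ISG15, IFI27 and BST2 lie at chr1:1013365-1013424 (plus strand), chr14:94110616-94110675 (plus strand) and chr19:17405720-17405779 (minus strand). Within the 250 bases before the start site, the motif was found in 22 of 44 interferon-stimulated genes with a promoter entry (50%), and in 254 of 10665 tested genes with one (2.38%). Among the 9 genes past the threshold below that had an entry, IFI6 and ISG20 held it. A match describes the letters and is not evidence of binding.

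Total counts ran from 1769114 to 6938453 per NCI-H647 library. The cells expressed the epithelial keratins KRT8 and KRT18 (153 to 739 and 146 to 1465 CPM, counts scaled to a common library size) together with the mesenchymal genes VIM (287 to 2007 CPM) and ZEB1 (14.5 to 94.4 CPM). The further epithelial markers KRT19 and EPCAM were lower, at 1.95 to 47.4 and 0.345 to 6.63 CPM. The lung lineage genes NKX2-1 and NAPSA stayed at or under 1.27 and 1.17 CPM and the epithelial adhesion gene CDH1 at or under 1.11 CPM. Of the leukocyte, endothelial and fibroblast markers, CD3E held no count in any library, PTPRC, VWF and COL3A1 stayed at or under 0.795 CPM and DCN at or under 1.58 CPM. The endothelial genes PECAM1 and CDH5 were at 0.633 to 5.99 and 0 to 8.56 CPM, and the collagen gene COL1A1 at 1.56 to 7.85 CPM. The macrophage gene CD68, which many other cells also express, was at 3.68 to 11.2 CPM. Summed leukocyte markers were 4.14 to 10.7 CPM in treated and 6.01 to 11.8 CPM in DMSO libraries at 24 h, and summed fibroblast markers 2.01 to 5.98 and 3.53 to 5.16 CPM. Summed endothelial markers were 3.55 to 7.93 CPM in treated and 1.27 to 2.07 CPM in DMSO libraries at 24 h, which did not overlap, and 2.46 to 9.37 and 2.60 to 10.1 CPM at 6 h, which did. That sum moved with the difference between the times, and its part in the results was not tested. Mitochondrial transcripts took 5.43 to 8.55% of counts in treated and 5.58 to 7.38% in DMSO libraries at 24 h.

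5 libraries stood apart from the rest, with a median correlation to the libraries of their time of 0.899 to 0.917, against 0.939 or more in the other 37. They were DMSO replicate 2 at 6 h, DMSO replicates 2 and 3 at 24 h, RBN-2397 at 300 nM replicate 2 at 6 h, and RBN012337 at 100 nM replicate 2 at 24 h. Leaving out all 5 puts the whole 24 h response on 1 DMSO library, which is then assumed to vary like the other groups. The main counts and the interferon list are given with and without them.

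Of 14789 genes tested, 10 (0.0676%) had a different response at 24 h than at 6 h by edgeR's quasi-likelihood test at an adjusted p under 0.05, 9 of them higher at 24 h (0.0609%) and 1 lower (0.00676%). They were the interferon-stimulated genes IFI6 and ISG20, the secreted proteins SMOC1, IGFBP5 and PAPPA, the keratin KRT17, the readthrough gene RTEL1-TNFRSF6B, the noncoding genes AC023043.1 and AL365356.5, and the histone gene HIST1H4H. Log2 differences of the 9 ran from 1.43 to 2.53, and HIST1H4H differed by −2.24. Gene positions below are those of GENCODE 29 on GRCh38 and span the whole gene. Replicate number within time was a term of this fit, and without that replicate block 0 genes passed, with 894 at an unadjusted p under 0.05 against 1212 with it. Without the 5 libraries that stood apart 3 genes passed, IFI6, IGFBP5 and AC079781.5, the last chosen after its values were seen. The differences were then −0.70 for HIST1H4H (edgeR adjusted p = 1), 0.91 for PAPPA, 0.89 for AC023043.1 and 1.26 for IGFBP5, each moved by over 1.5 times from its value with all libraries. Among single libraries, the count was 0 without DMSO replicate 2 at 24 h, 1 without DMSO replicate 3 at 24 h, 2 without DMSO replicate 2 at 6 h, 105 without RBN012337 at 100 nM replicate 2 at 24 h and 208 without DMSO replicate 1 at 24 h.

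**Figure D1:**
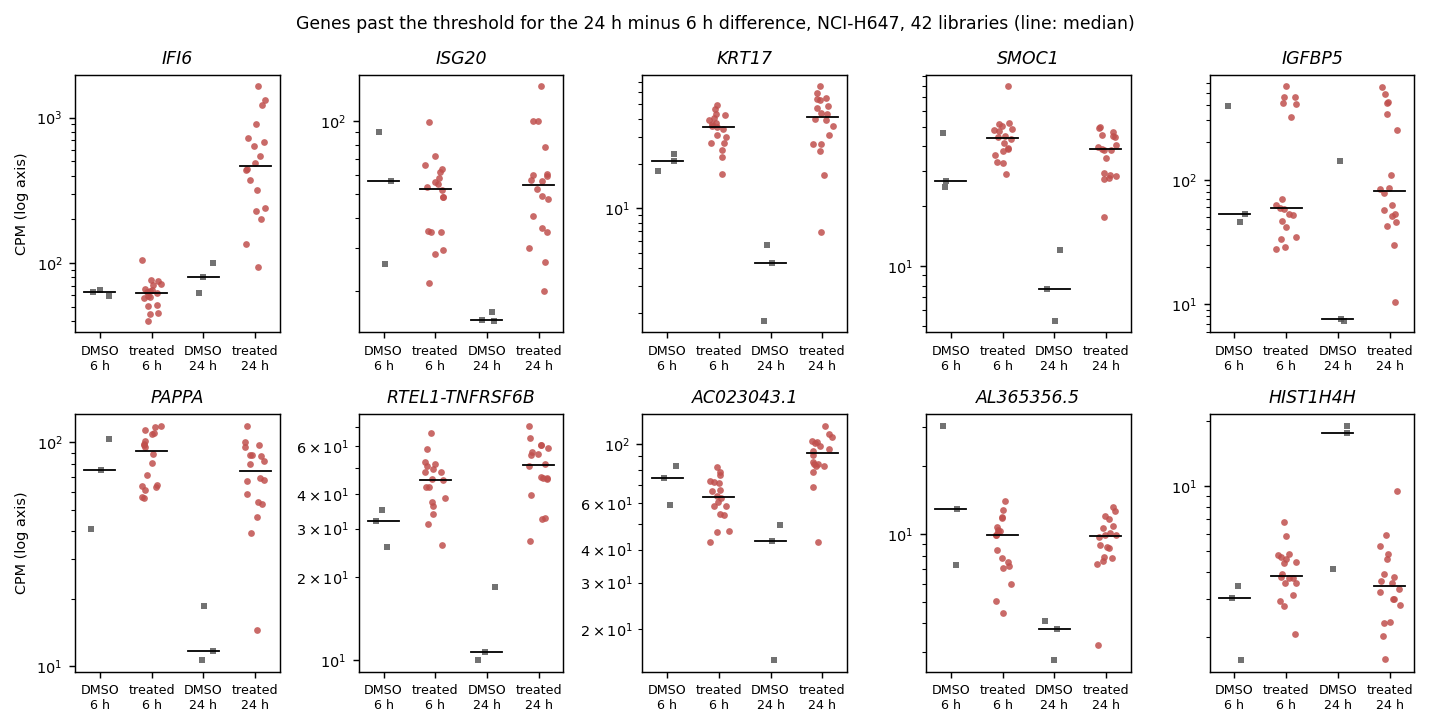
CPM (log axis) of the 10 genes past the threshold in the 42 NCI-H647 libraries, with grey squares for the 3 DMSO libraries and red circles for the 18 treated libraries of each time and a line for the class median. IFI6 was higher in treated libraries at 24 h than at 6 h, whereas ISG20, KRT17, SMOC1 and most of the others were lower in DMSO libraries at 24 h than at 6 h.

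IFI6, an antiviral protein induced by type I interferon (ENSG00000126709.14, chromosome 1, 27666061 to 27672218, minus strand), was at 66.0, 59.1 and 63.0 CPM in the DMSO libraries at 6 h and at 62.6, 79.8 and 101 CPM at 24 h. Treated libraries ran from 40.3 to 106 CPM at 6 h (median 62.7) and from 94.8 to 1642 CPM at 24 h (median 465). Treated and DMSO libraries overlapped at 6 h, and 17 of the 18 treated libraries exceeded every DMSO library at 24 h. The log2 response was −0.01 ± 0.30 (SE) at 6 h and 2.52 ± 0.35 at 24 h, a difference of 2.53 ± 0.43 (edgeR adjusted p = 0.00985). ISG20, an interferon-induced exonuclease (ENSG00000172183.14, chromosome 15, 88636153 to 88656483, plus strand), was at 26.0, 90.3 and 56.9 CPM in DMSO at 6 h and at 16.4, 15.1 and 15.3 CPM at 24 h. Treated libraries ran from 21.6 to 99.1 CPM at 6 h (median 52.8) and from 20.02 to 139 CPM at 24 h (median 54.7), where all 18 exceeded the 3 DMSO libraries. The response was −0.09 ± 0.20 at 6 h and 1.69 ± 0.24 at 24 h, a difference of 1.78 ± 0.31 (edgeR adjusted p = 0.0062). The promoters of both genes are among those shown above. Both genes were picked by the test on these same values, so their separation from 3 DMSO libraries only describes them. The share of all genes so separated was not counted.

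IFI6 varied widely among the treated libraries at 24 h. RBN-2397 gave 239, 542 and 901 CPM at 10 nM, 376, 725 and 1330 CPM at 30 nM and 489, 440 and 1642 CPM at 300 nM in replicates 1 to 3. RBN012337 gave 200, 319 and 682 CPM at 3 nM, 135, 228 and 639 CPM at 10 nM and 435, 94.8 and 1228 CPM at 100 nM. Replicate 3 was the highest in all 6 treatments, and the lowest value of all was that of the library that stood apart.

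The difference is built from a treated arm, the treated mean at 24 h minus 6 h, and a DMSO arm, the same in DMSO libraries. For IFI6 the treated arm was 2.88 and the DMSO arm 0.34 on the log2 CPM scale. For the other 9 genes the DMSO arm was the larger in size. In ISG20 the treated arm was 0.12 and the DMSO arm −1.68, so that treated libraries were near their 6 h level and DMSO libraries below theirs.

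**Figure D2:**
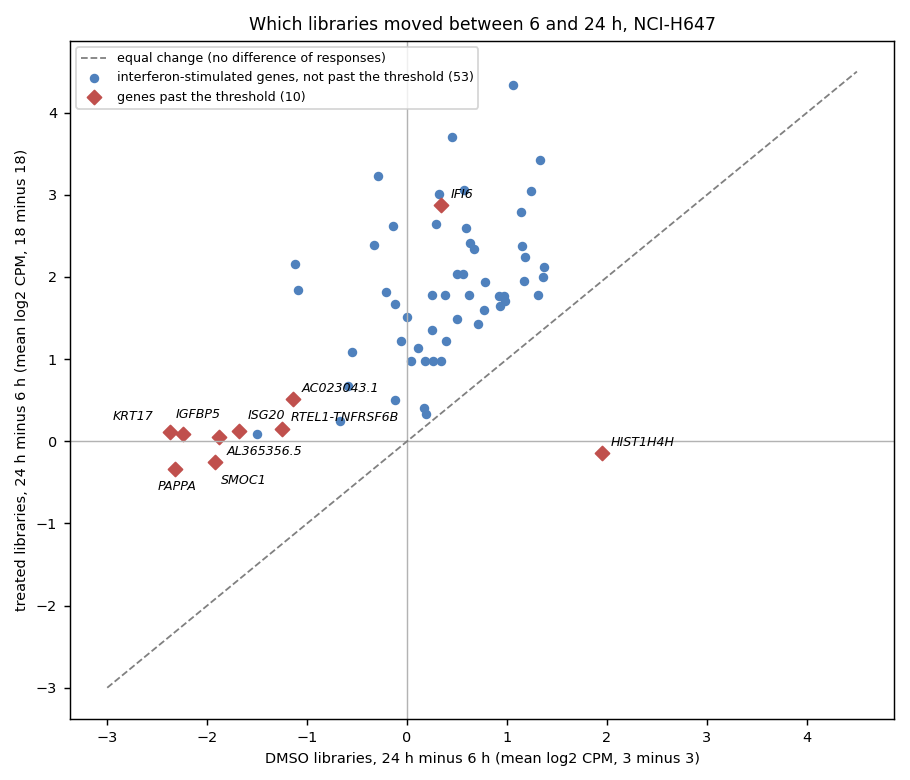
Change of mean log2 CPM from 6 to 24 h in treated libraries (vertical axis) against that in DMSO libraries (horizontal axis), for the 10 genes past the threshold (red diamonds) and 53 further interferon-stimulated genes (blue circles); the dashed line marks equal change. IFI6 lies at 2.88 and 0.34 with most interferon-stimulated genes, HIST1H4H lies to the right, and the other 8 lie to the left with little change in treated libraries.

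In the secreted proteins the DMSO arms were −1.92 for SMOC1, −2.32 for PAPPA and −2.24 for IGFBP5, against treated arms of −0.26, −0.33 and 0.09. SMOC1, a calcium-binding matrix protein (ENSG00000198732.10, chromosome 14, 69854131 to 70032366, plus strand), was at 46.2, 24.9 and 26.7 CPM in DMSO at 6 h and at 12.02, 5.33 and 7.64 CPM at 24 h. In treated libraries it ran from 28.9 to 79.6 CPM (median 43.9) at 6 h and from 17.7 to 49.9 CPM (median 38.5) at 24 h, above all DMSO libraries of that time. The difference was 1.74 ± 0.30 (edgeR adjusted p = 0.00573). SMOC1 was likewise picked by the test on these values, and the share of all genes so separated was not counted. PAPPA, a protease that cleaves insulin-like growth factor binding proteins (ENSG00000182752.9, chromosome 9, 116153804 to 116402322, plus strand), was at 40.9, 103 and 75.1 CPM in DMSO at 6 h and at 18.7, 10.7 and 11.8 CPM at 24 h. Treated libraries ran from 56.6 to 118 CPM (median 91.9) at 6 h and from 14.5 to 119 CPM (median 74.9) at 24 h, where 1 of them lay below the highest DMSO library, with a difference of 1.97 ± 0.40 (edgeR adjusted p = 0.0387).

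IGFBP5, one of the binding proteins that PAPPA cleaves (ENSG00000115461.4, chromosome 2, 216672105 to 216695525, minus strand), followed the replicate number. DMSO libraries were at 388, 52.9 and 45.7 CPM at 6 h and at 140, 7.40 and 7.64 CPM at 24 h. Treated libraries at 24 h were at 250 to 559 CPM in replicate 1, at 10.4 to 57.3 CPM in replicate 2 and at 50.7 to 109 CPM in replicate 3. The difference was 2.09 ± 0.37 with the replicate block (edgeR adjusted p = 0.00985), and the adjusted p was 0.935 without it. IGFBP4, a further PAPPA substrate, lay just outside the threshold at 1.39 ± 0.30 (edgeR adjusted p = 0.0519), as did IFITM3, which blocks viral entry, at 1.27 ± 0.27.

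KRT17, a keratin of basal and stressed epithelium (ENSG00000128422.15, chromosome 17, 41619441 to 41624842, minus strand), was at 23.1, 17.9 and 20.9 CPM in DMSO at 6 h and at 5.69, 4.30 and 1.76 CPM at 24 h. Treated libraries had medians of 35.4 and 41.3 CPM, and a lowest value at 24 h of 6.90 CPM. The difference was 2.39 ± 0.48 (edgeR adjusted p = 0.0371). Near-identical keratin copies make its count uncertain. RTEL1-TNFRSF6B, a readthrough of a helicase gene and a decoy receptor gene (ENSG00000026036.22, chromosome 20, 63659300 to 63698684, plus strand), was at 35.0, 25.7 and 31.9 CPM in DMSO at 6 h and at 18.3, 10.7 and 10.0 CPM at 24 h, against treated medians of 45.3 and 51.0 CPM. Its difference was 1.43 ± 0.27, and its count is uncertain because it shares sequence with the genes it spans.

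AC023043.1, annotated antisense and overlapping ELP2 (ENSG00000260552.1, chromosome 18, 36179996 to 36187448, minus strand), had treated medians of 63.2 CPM at 6 h and 92.6 CPM at 24 h and DMSO values of 59.1, 82.5 and 74.3, then 49.3, 15.3 and 42.9 CPM. AL365356.5, an intergenic noncoding RNA (ENSG00000242147.1, chromosome 10, 5594991 to 5596118, minus strand), had treated medians of 9.87 and 9.78 CPM and DMSO values of 7.25, 30.3 and 12.9, then 3.80, 2.75 and 4.12 CPM. Their differences were 1.59 ± 0.27 and 2.10 ± 0.40, and the count of the antisense gene is uncertain because the use of strand is not given in the sources used here. HIST1H4H, a histone H4 gene (ENSG00000158406.4, chromosome 6, 26277609 to 26285638, minus strand), was the one gene past the threshold that was lower. Its DMSO libraries were at 3.42, 1.56 and 3.03 CPM at 6 h and at 4.11, 19.1 and 17.6 CPM at 24 h, the high values being those of replicates 2 and 3. Treated medians were 3.83 and 3.44 CPM, and the difference was −2.24 ± 0.44 (edgeR adjusted p = 0.0179). RBN012337 at 100 nM replicate 2 was the lowest treated library at 24 h in each of the 9 higher genes, and the highest in HIST1H4H.

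The squamous differentiation list, with 3 of its 16 genes tested, had a median difference of 1.60, with KRT17 past the threshold. Its median DMSO arm was −1.98 and its median treated arm −0.35. The squamous markers TP63 and KRT5 stayed at or under 0.592 and 0.260 CPM in all NCI-H647 libraries, and DSG3 at or under 3.48 CPM. Among the lists with more than 3 tested genes, the interferon-stimulated genes had the largest median difference. Of 55 genes tested, 54 had a positive difference (98.2%, against 49.6% of all genes), with a median log2 difference of 1.27 against −0.00 over all genes, and 39 (70.9%) had an unadjusted p under 0.05 against 8.2% of all genes. IFI6 and ISG20 passed the adjusted threshold. That count of 2 was 23 without RBN012337 at 100 nM replicate 2 at 24 h, 16 without DMSO replicate 1 at 24 h, 4 without RBN-2397 at 300 nM replicate 2 at 6 h, and 0 without DMSO replicate 2 at 6 h or DMSO replicate 2 or 3 at 24 h. It was 18 by DESeq2, 28 with no filter on low counts and 0 without the replicate block. The median response was 0.16 at 6 h and 1.49 at 24 h. CMPK2, CXCL10 and CXCL11 had a class of libraries at 0 counts and held 187, 839 and 176 counts in treated libraries at 24 h. Without these 3 genes the medians were 1.29 for the difference, 0.13 at 6 h and 1.41 at 24 h over 52 genes. The shares above include them and were not recomputed. The list was chosen with earlier results of these data known, so the shares describe it and are not independent support. Without the 5 libraries that stood apart the median difference of the 55 genes was 0.74, with 50 positive and 1 past the threshold, and without the 2 treated ones 27 passed. Over all libraries their median treated arm was 1.78 and their median DMSO arm 0.38. Mean log2 CPM over the list ran from 3.24 to 3.57 in DMSO at 6 h, 3.36 to 3.93 in DMSO at 24 h, 2.88 to 4.28 in treated libraries at 6 h (median 3.56) and 3.53 to 7.01 at 24 h (median 5.47).

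**Figure D3:**
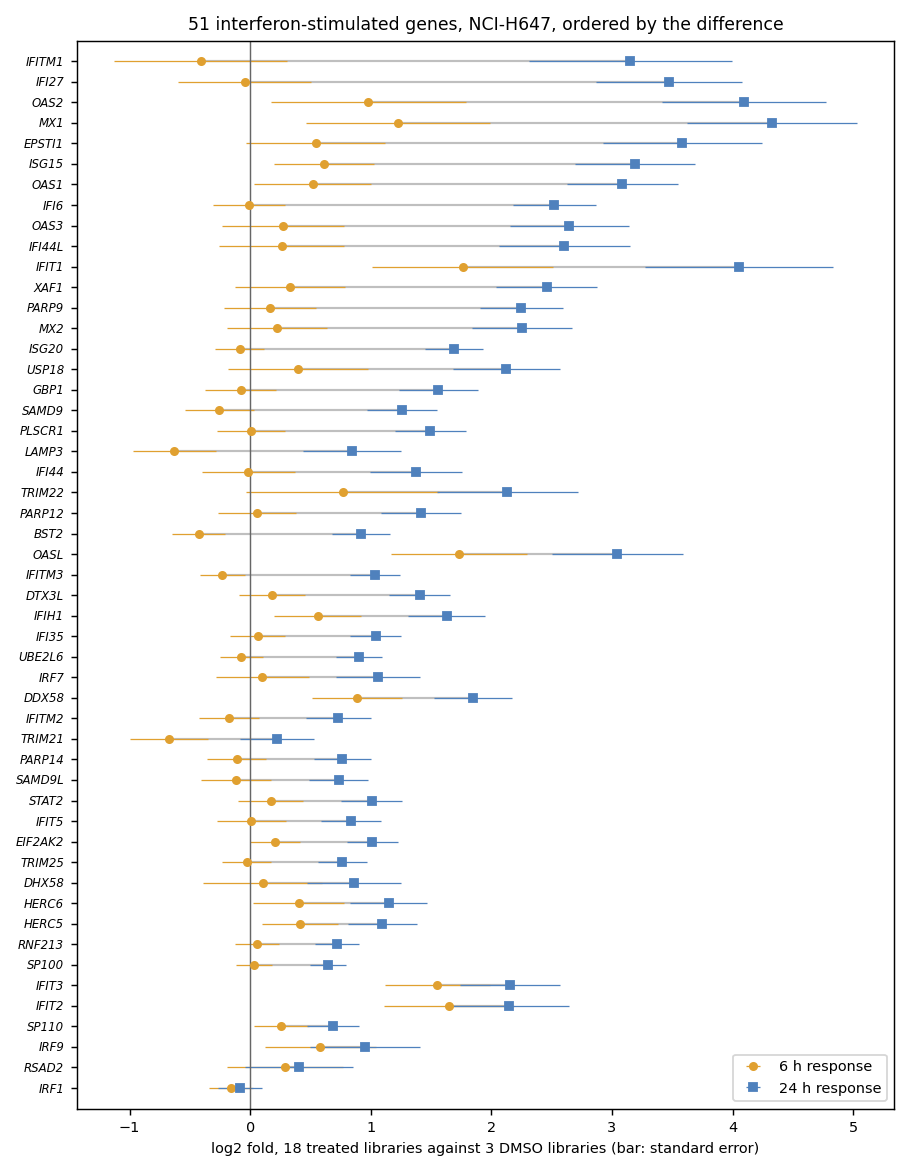
Log2 response at 6 h (orange circles) and 24 h (blue squares) of 51 interferon-stimulated genes, one per line and ordered by their difference, with bars for the standard error of 18 treated against 3 DMSO libraries. The median over the 52 genes of the text is 0.13 at 6 h and 1.41 at 24 h, and IFIT1, IFIT2, IFIT3 and OASL have the highest 6 h responses.

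Of 13 tested genes of interferon receptors and signalling, 7 had a positive difference (median 0.21, 0 called), and their median 24 h response was −0.02. The receptor subunit IFNAR1 differed by −0.44 ± 0.19. STAT2, which is also on the interferon-stimulated list, had treated medians of 14.1 CPM at 6 h and 47.4 CPM at 24 h. Its difference was 0.84 ± 0.36 (edgeR adjusted p = 0.539), and that of its partner IRF9 was 0.37 ± 0.65. The following effectors were chosen with their values known. ISG15, a ubiquitin-like modifier, had treated medians of 162 CPM at 6 h and 939 CPM at 24 h and differed by 2.57 ± 0.58. IFI27 went from a treated median of 9.74 to 116 CPM and differed by 3.51 ± 0.79, and BST2, which tethers budding virus, differed by 1.34 ± 0.32. MX1, an antiviral GTPase, had treated medians of 7.91 and 288 CPM and a difference of 3.10 ± 0.99. OAS1, which makes the messenger that activates RNase L, differed by 2.57 ± 0.66, EPSTI1 by 3.04 ± 0.89 and GBP1, a guanylate-binding protein, by 1.64 ± 0.43. None of these 7 passed the adjusted threshold.

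The antiviral genes IFIT1, IFIT2, IFIT3 and OASL had the highest 6 h responses of the 52 genes, none past the threshold, and were picked out by those values. The responses at 6 h were 1.76 ± 0.75 for IFIT1, 1.65 ± 0.54 for IFIT2, 1.55 ± 0.44 for IFIT3 and 1.73 ± 0.57 for OASL. Their 24 h responses were 4.05, 2.15, 2.16 and 3.04, and their differences 2.29 ± 1.03, 0.50 ± 0.71, 0.60 ± 0.56 and 1.31 ± 0.80. All 18 treated libraries exceeded DMSO in 1 of the 55 list genes at 6 h, OASL, and in 2 of them at 24 h. The share over all genes was not counted, so no excess can be read from these numbers. CXCL10, a chemokine for T cells, held 0 counts summed over the 3 DMSO libraries and 33 over the 18 treated libraries at 6 h, and 7 and 839 counts at 24 h. Its fitted difference was −0.68, the 1 negative value of the list, and rests on the class at 0 counts. IFNB1, interferon beta itself, was below the filter, with 13 counts over 7 of the 18 treated 24 h libraries and none elsewhere.

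Other lists of the pathway shifted less. Among 17 nucleic acid sensors 13 differences were positive (median 0.46, 0 called), with AIM2 at 1.83 ± 0.58 and IFIH1, a sensor of double-stranded RNA, at 1.07 ± 0.47. EIF2AK2, the kinase that halts translation on double-stranded RNA, differed by 0.81 ± 0.28 and SAMHD1, which depletes nucleotides, by 0.77 ± 0.32. Among 15 PARP family genes 11 were positive (median 0.33, 0 called), with PARP9 at 2.08 ± 0.51, PARP12 at 1.36 ± 0.46 and PARP14 at 0.88 ± 0.34. TIPARP, the target itself, differed by 0.08 ± 0.49. MHC class I presentation had a median of 0.32 (13 of 18 positive, 0 called) and NF-kB targets one of 0.10 (10 of 18 positive, 0 called). PSMB8, an immunoproteasome subunit, differed by 0.87 ± 0.26, and the chemokine CCL20 by 1.84 ± 0.61, with treated medians of 81.9 CPM at 6 h and 120 CPM at 24 h. CCL5, a further chemokine, differed by 1.24 ± 0.34 and had treated medians of 16.1 and 42.9 CPM. Among apoptosis regulators (8 of 20 positive, median −0.15, 0 called) the death ligand TNFSF10 differed by 2.28 ± 0.81 and CASP1, an inflammatory caspase, by 1.25 ± 0.42. IDO1, an enzyme of tryptophan breakdown, differed by 2.63 ± 1.19 in a list of checkpoint ligands with a median of 0.06 (5 of 8 positive, 0 called).

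The 13 tested genes of the aryl hydrocarbon receptor list had a median difference of −0.05 (6 positive, 0 called). CYP1B1, a monooxygenase induced by the receptor, was at 162, 84.03 and 138 CPM in DMSO at 6 h and at 119, 59.2 and 113 CPM at 24 h, against treated medians of 284 and 218 CPM. Its response was 0.83 ± 0.41 at 6 h and 1.04 ± 0.41 at 24 h, a difference of 0.21 ± 0.54. AHRR, the receptor's repressor, differed by −0.80 ± 0.62, LRAT by −1.54 ± 0.45 and ALDH3A1, an aldehyde dehydrogenase, by 1.18 ± 0.54, none past the threshold. CYP1A1 was below the filter.

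Proliferation lists were uniform in sign and small in size. All 32 DNA replication genes had a positive difference (median 0.67, 0 called), as did all 29 mitosis genes (median 0.58, 0 called) and all 37 ribosomal protein genes (median 0.29, 0 called), against 49.6% of all genes. An unadjusted p under 0.05 was reached by 11 of the replication genes (34.4%), 14 of the mitosis genes (48.3%) and 5 of the ribosomal protein genes (13.5%), the last near the 8.2% of all genes. MCM4, a subunit of the replicative helicase, was at 99.9, 78.6 and 105 CPM in DMSO at 6 h and at 109, 30.3 and 39.4 CPM at 24 h, against treated medians of 97.9 and 119 CPM. Its difference was 0.95 ± 0.26, and the mitotic motor CENPE differed by 1.05 ± 0.31 and the kinase AURKA by 0.76 ± 0.26. DMSO replicates 2 and 3 at 24 h, both among the libraries that stood apart, were the low ones for MCM4. Mean log2 CPM over the replication list was 3.84, 4.52 and 5.62 in DMSO libraries at 24 h, in order of size, against a treated median of 5.47. Over the mitosis list it was 5.38, 5.58 and 6.60 against 6.52, and over the ribosomal list 10.48, 10.88 and 11.28 against 11.03. The highest DMSO library thus lay above the treated median in each list, and the part of the low ones was not tested. Of 20 genes of the amino acid stress response 18 were negative (median −0.19, 0 called), and 8 (40%) had an unadjusted p under 0.05. ASNS, asparagine synthetase, differed by −3.14 ± 0.94 and DDIT3, a stress transcription factor, by −1.54 ± 0.47. DMSO replicate 2 at 24 h, a library that stood apart, held 184 CPM of DDIT3 against 30.0 and 55.9 in the other DMSO libraries, and its part in these values was not tested. ERK output genes had a median of −0.45 (6 of 24 positive) and p53 targets one of −0.26 (4 of 18 positive), 0 called in either. In both, 1 DMSO library at 24 h lay far above the others. Mean log2 CPM in DMSO at 24 h was 3.23, 3.43 and 4.56 for ERK output, in order of size, against a treated median of 3.79. For p53 targets it was 3.36, 3.49 and 4.55 against 3.44, and the part of the high library was not tested. Of 23 YAP and TGF-beta targets 11 were positive (median −0.15, 0 called), with the matrix protein TGFBI at 0.76 ± 0.19 and AMOTL2 at −0.9957 ± 0.29. Of 14 mesenchymal genes 13 were positive (median 0.30, 0 called), among them fibronectin, FN1, at 1.12 ± 0.33. Of 13 epithelial adhesion and keratin genes 10 were positive (median 0.51, 0 called), and KRT7 differed by 1.64 ± 0.71. MANF, a secreted chaperone, differed by 0.84 ± 0.20 in a list of ER chaperones with a median of 0.21 (13 of 18 positive, 0 called).

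**Figure D4:**
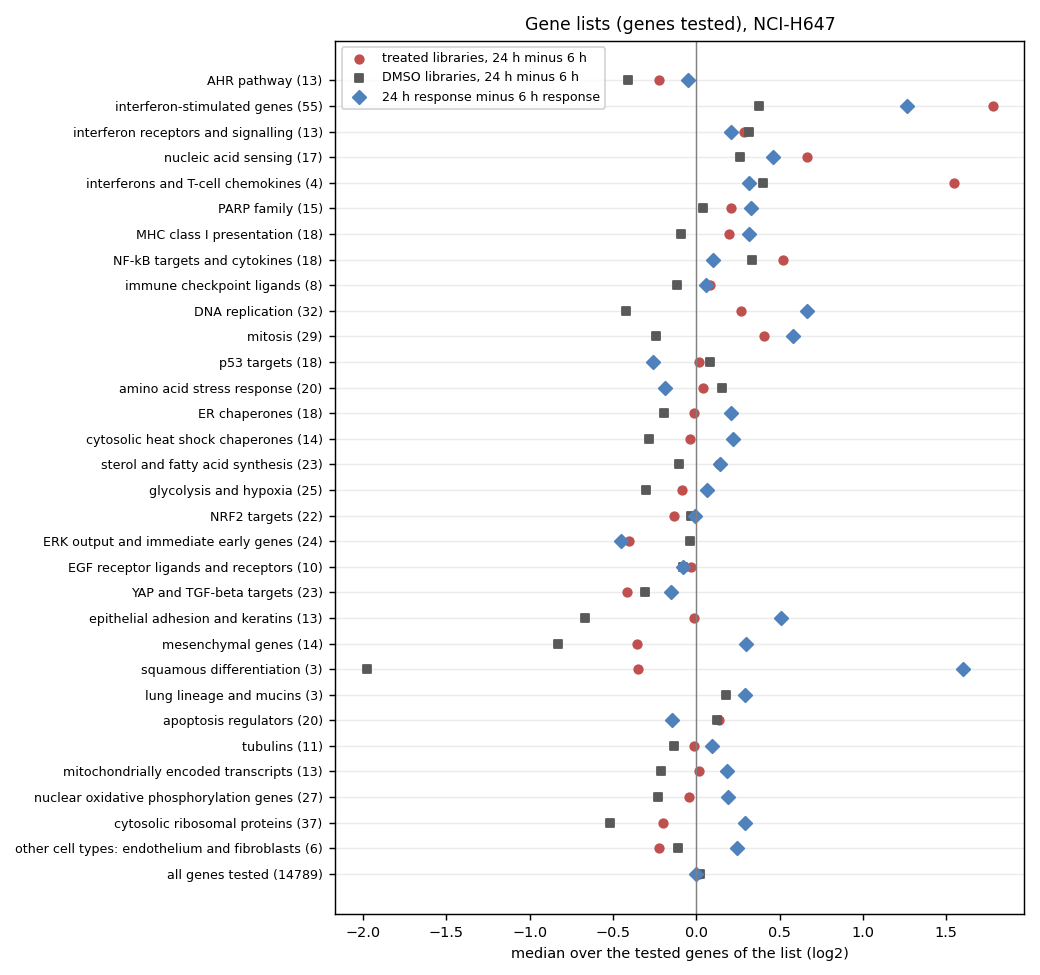
Median over the tested genes of each list (number in brackets, log2 axis) of the change from 6 to 24 h in treated libraries (red circles), of that in DMSO libraries (grey squares) and of the difference of responses (blue diamonds). Interferon-stimulated genes stand at 1.78, 0.38 and 1.27, whereas the DNA replication list has a DMSO median of −0.42 and a difference of 0.67.

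More genes passed the threshold for the 24 h response than for the 6 h response, which does not itself test a difference between the times. At 24 h 1216 genes passed (8.22% of 14789), 616 higher (4.17%) and 600 lower (4.06%), and at 6 h 7 genes passed (0.0473%). By edgeR, 3443 genes at 24 h and 1607 at 6 h had an unadjusted p under 0.05. Single DMSO libraries moved both counts: the 24 h count was 1914, 558 and 312 without DMSO replicate 1, 2 or 3 at 24 h, and the 6 h count was 864, 3 and 3 without DMSO replicate 1, 2 or 3 at 6 h. Without RBN012337 at 100 nM replicate 2, which stood apart, the 24 h count was 1843. The difference shares its libraries with both responses. At 24 h 45 of 55 interferon-stimulated genes were higher, against 4.17% of all genes. That number was 29 without the replicate block and 14 without the 5 libraries that stood apart, where 70 genes passed in all. TGM2, a transglutaminase, rose by 1.63 ± 0.22 and TFPI2, a protease inhibitor, by 1.32 ± 0.18 at 24 h, while HIST1H2AC changed by −1.86 ± 0.21 and SQSTM1, an autophagy receptor, by −1.37 ± 0.18. At 6 h FAM167A (1.70 ± 0.27), FST, an activin antagonist (1.60 ± 0.31), and TSC22D1 (0.94 ± 0.18) were among the higher genes and ARL6IP1 (−0.94 ± 0.16) was lower. SRXN1 and AC079594.2 also passed, and their counts are uncertain because they overlap other genes. FST differed between the times by −0.18 ± 0.45 and FAM167A by −0.59 ± 0.40, neither past the threshold.

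Each treatment was also set against DMSO alone. RBN-2397 at 30 nM had 5 genes past the threshold (0.0338%), namely AC023043.1, SMOC1, ISG20, IFI6 and AL365356.5, with 0 when any of 14 single libraries was left out. The other 5 treatments had 0 (0%) by edgeR, with 421 to 1157 genes at an unadjusted p under 0.05. DESeq2 called 18, 32 and 48 genes for RBN-2397 at 10, 30 and 300 nM and 16, 8 and 10 for RBN012337 at 3, 10 and 100 nM. The interferon list's median difference was 1.51, 1.53 and 1.60 for RBN-2397 at rising dose and 1.15, 0.69 and 1.16 for RBN012337. IFI6 differed by 2.75, 3.11 and 2.88, and by 2.34, 1.63 and 2.46, in the same order. The treatments share their DMSO libraries.

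**Figure D5:**
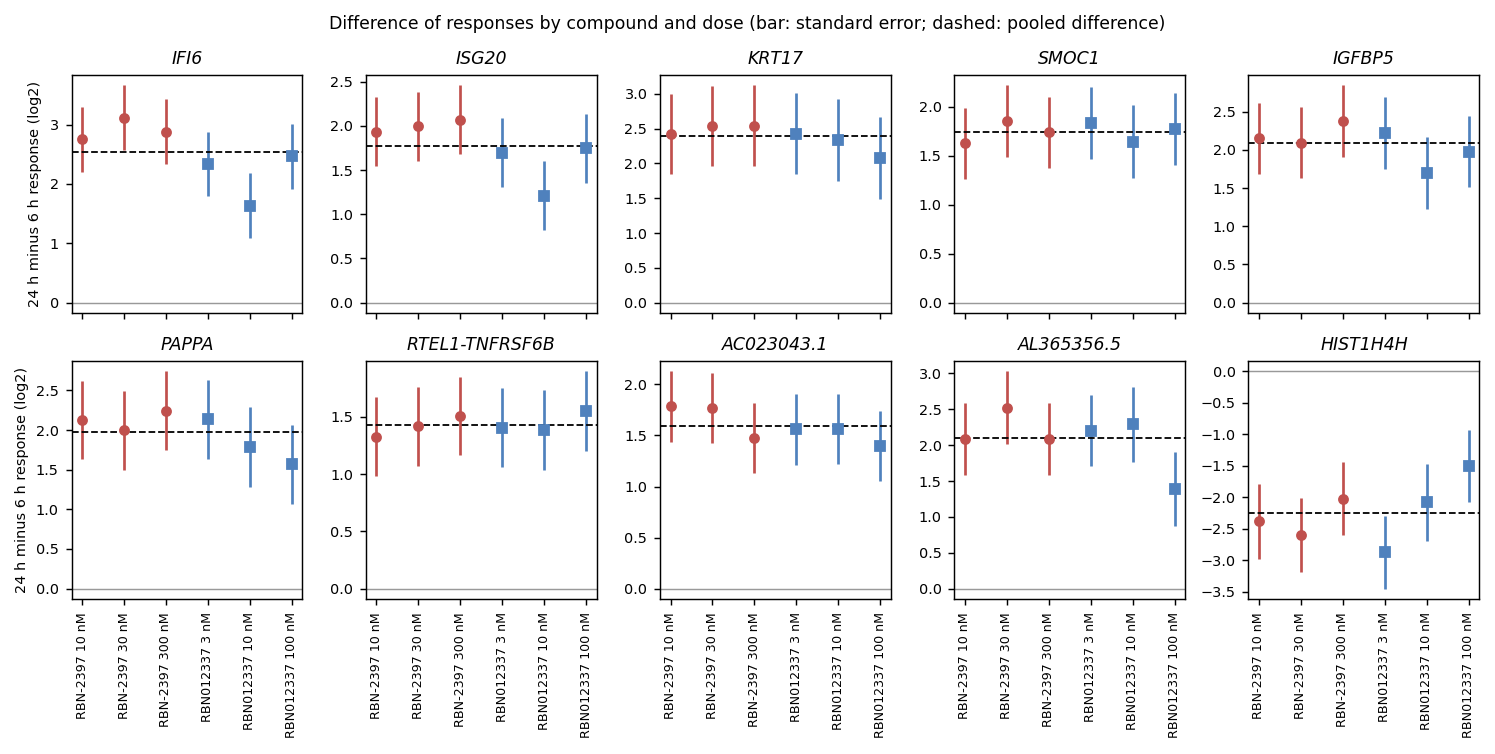
Difference of responses (24 h minus 6 h, log2) of the 10 genes past the threshold for each compound and dose, with bars for the standard error and a dashed line for the pooled difference; circles are RBN-2397 and squares RBN012337. All treatments share the DMSO libraries, and IFI6 runs from 1.63 to 3.11 over the 6 treatments.

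The compounds shared 1 dose, 10 nM, where DMSO cancels from their comparison. No gene of 14789 passed by edgeR (327 at an unadjusted p under 0.05), and 2 did by DESeq2, PDXP and BIVM-ERCC5, which were chosen after their values were seen. RBN-2397 minus RBN012337 was 1.12 for IFI6 (95% interval 0.03 to 2.21), 0.72 for ISG20 (−0.04 to 1.48), 0.08 for KRT17 (−0.94 to 1.11) and −0.02 for SMOC1 (−0.70 to 0.66), all at an adjusted p of 1. These intervals leave room for differences of over 1 log2 unit for IFI6, ISG20 and KRT17.

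NCI-H1373, the second lung cancer line of the study, was treated in the same way. Of 16177 genes tested over all 84 libraries, 5 (0.0309%) had a 24 h minus 6 h difference of responses that was unlike between the lines. NCI-H647 minus NCI-H1373 in that difference, which is not a comparison of expression levels, was positive for MB21D2 (3.49 ± 0.65), SPANXC (6.19 ± 1.25) and TFPI2 (2.77 ± 0.58). It was negative for SAA1 (−2.60 ± 0.52) and DHRS4L2 (−2.78 ± 0.57). The count was 0 without NCI-H647 DMSO replicate 3 at 6 h, 2 without DMSO replicate 2 at 6 h or replicate 3 at 24 h, 12 without DMSO replicate 2 at 24 h, and 2 without the replicate block. No NCI-H1373 library was left out, so dependence of the count on them is not known. TFPI2 differed between the times by 1.03 ± 0.23 in NCI-H647 and −1.74 ± 0.52 in NCI-H1373. In NCI-H1373 it was low, at 6.13, 5.13 and 0 CPM in DMSO at 24 h against a treated median of 1.25 CPM. MB21D2 differed by 0.77 ± 0.44 and −2.70 ± 0.47, with treated medians in NCI-H1373 of 12.05 CPM at 6 h and 4.60 CPM at 24 h. SPANXC held 88 counts over all NCI-H1373 libraries, with 0.411, 0 and 0 CPM in DMSO at 6 h, 8.80, 3.59 and 0 CPM at 24 h and treated medians of 0.231 and 0 CPM, so that its fitted 6.19 is not a measured size. SPANXC, SAA1 and DHRS4L2 have near-identical copies, so their counts are uncertain. The interferon list had a median difference of responses of 1.30 in NCI-H1373, and for 0 of its 55 genes was that difference unlike between the lines. NCI-H647 minus NCI-H1373 in it was 0.11 ± 0.90 for IFI6 and 0.60 ± 0.57 for ISG20.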

How the data were processed

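RNA was counted per gene in 84 libraries of NCI-H1373 and NCI-H647. The authors deposited estimated counts, of which 49.4% of nonzero values were not whole. They were rounded here. Salmon 0.11.27 and the genome build hg38 are named per the submitters' processing notes. Gene names came from GENCODE 29 (57845 of 57964 identifiers), and promoters from RefSeq GRCh38.p14.

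The 42 NCI-H647 libraries were fitted with edgeR 4.0.16 (R 4.3.3; TMM scaling, filterByExpr, robust quasi-likelihood F test), with a term for each of 14 groups and replicate number nested in time. P-values were adjusted by Benjamini-Hochberg over all 14789 genes, with a threshold of 0.05. The lines were compared in a fit of all 84 libraries. CPM used TMM-scaled library sizes, arms used a prior count of 2, and intervals are at 95%. Each standard error was derived from the test, as the absolute log2 value divided by the square root of its F statistic. The intervals rest on these derived errors. Total counts per library ran from 630654 to 6938453 over all 84.

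The members and gene lists were chosen with earlier results of these data known. Named genes were those past the threshold whose highest class mean reached 10 counts, with 1 sign in all 6 treatments (up to 12 each way by size and 8 by p), up to 4 per list by p, up to 5 each way in the other comparisons, and TIPARP, CYP1A1, CYP1B1, AHRR, IFNB1 and CXCL10. Other names were chosen after their values were seen. Some genes that the rule names are not reported here, but they remain in the counts and medians.

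Deviations from group means of same-numbered libraries of a time had a median correlation of 0.144 (82 of 126 pairs over 0.1, lowest −0.0488). Same-numbered libraries thus tended to vary together, though not in every pair, and the numbers were not shown to pair all libraries. The block was kept because the comparison was defined with it. The 42 replicate pairs within groups differed by 4.05 to 44.1 chi-square per degree of freedom, so none was taken as a repeat, and scatter beyond counting error enters every standard error. Alternatives were no block, DESeq2 1.42.0 and its size factors, other filters, treated libraries as 1 group, 1 compound at a time, and leaving out libraries.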

Additional observations from a re-analysis of the deposited data

Results flagged for a closer look

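A test of the 24 h response minus the 6 h response singled out 10 genes in NCI-H647, and a test of that difference between the lines singled out 5. The 24 h response exceeded the 6 h response by 2.53 for IFI6, 2.39 for KRT17, 2.10 for AL365356.5, 2.09 for IGFBP5, 1.97 for PAPPA, 1.78 for ISG20, 1.74 for SMOC1, 1.59 for AC023043.1 and 1.43 for RTEL1-TNFRSF6B on the log2 scale. HIST1H4H differed by −2.24. NCI-H647 exceeded NCI-H1373 in that difference by 3.49 for MB21D2, 6.19 for SPANXC, a fitted value resting on few counts in NCI-H1373, and 2.77 for TFPI2, and lay below it for SAA1 (−2.60) and DHRS4L2 (−2.78).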

How the results depend on the processing

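Each count of genes past the threshold was recomputed under the alternatives. Without the replicate block the difference between the times gave 0 genes, the 24 h response 736 (334 higher and 402 lower), the 6 h response 2, RBN-2397 at 30 nM 0 and the line difference 2. The labels do not say that a number marks a shared culture or day. DESeq2 gave 66 genes for the difference, 110 for the 6 h response, 2 for the compounds at 10 nM, 18, 32 and 48 for RBN-2397 at 10, 30 and 300 nM, 16, 8 and 10 for RBN012337 at 3, 10 and 100 nM, and 16 for the line difference. With no filter on low counts the same numbers were 222 (182 higher and 40 lower), 318, 49, then 159, 181 and 244, then 149, 90 and 94, and 67. With a mean count of at least 20, RBN-2397 at 300 nM gave 4. RBN-2397 alone gave 26 genes and RBN012337 alone 2.

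Leaving out libraries that stood apart was chosen after seeing the data. Without the 2 treated ones the difference gave 156 genes, the 24 h response 2114 and the 6 h response 25. Without all 5 they gave 3, 70 and 25. Leaving out 1 library, or 1 replicate number of a time, gave 0 to 208 genes for the difference, 201 to 1914 for the 24 h response and 3 to 864 for the 6 h response. For the compounds at 10 nM the range was 0 to 0. For RBN-2397 at 10, 30 and 300 nM it was 0 to 59, 0 to 82 and 0 to 132, and for RBN012337 at 3, 10 and 100 nM 0 to 53, 0 to 7 and 0 to 40. The line difference gave 0 to 12 over the 6 NCI-H647 DMSO libraries left out; the same for the treated libraries was not run. The cause of these shifts was not tested.

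The 10 genes past the threshold kept their direction in 58 settings (57 for HIST1H4H), though not their size: without the 5 libraries that stood apart HIST1H4H was at −0.70 and PAPPA at 0.91. They passed in 51 for AC023043.1 and SMOC1, 49 for IFI6 and ISG20, 48 for IGFBP5, AL365356.5 and RTEL1-TNFRSF6B, 44 for HIST1H4H, 22 for KRT17 and 17 for PAPPA. The settings reuse the same libraries and the genes were picked from them, so a kept direction is not independent support. The interferon list's median ranged from 0.98 to 1.45 when 1 library or 1 replicate number was left out. CYP1A1 and IFNB1 were below the filter on low counts at this depth and were not tested.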
